A study of Mus musculus with 3 samples.

Results

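The fibroblast growth factor (FGF) genes described here are the 4 FGF homologous factors Fgf11, Fgf12, Fgf13 and Fgf14, the secreted ligands Fgf1 and Fgf9, and the receptors Fgfr1, Fgfr2, Fgfr3 and Fgfr4. They were taken by GENCODE symbol from a deposited table of transcript abundances, and are 10 of 27480 genes and of 18221 protein-coding genes in it. The study mapped the engagement of topoisomerase TOP2B on the genome of neurons, and these RNA-seq data give the transcript levels of the untreated cells. Dissociated wild-type (WT) cortical neurons of Swiss-Webster mice at embryonic day 16 were grown on poly-D-lysine in neurobasal medium with B27 and sequenced as 3 libraries, which form 1 group. The shared growth text of the labels mentions the TOP2 poison etoposide in DMSO, but the treatment label of all 3 libraries is None. No other genotype, treatment or time was measured, so each value is a level and not a response. Whether the 3 libraries are separate cultures is not stated in the labels, so SDs and p-values below describe a spread that may be technical.

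FGF homologous factors fold like other FGFs but lack a secretion signal and stay inside the cell. There they bind the cytoplasmic tail of voltage-gated sodium channels and shift the inactivation of these channels, and alternative first exons give each factor several amino termini with different effects. Secreted FGFs act instead on FGF receptors, tyrosine kinases whose extracellular part holds immunoglobulin-like (Ig) domains and which need heparan sulfate as a cofactor. In the receptors, a choice between a IIIb and a IIIc exon sets the second part of the third Ig domain and with it the ligands that bind. In the cortex the secreted ligands and receptors are known for progenitor growth, glial development and synapse formation, and the homologous factors for setting the excitability of neurons.

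The first exons of the homologous factors are shown because the rows that differ in them carry the isoform results below. The coding part of the first coding exon is given 5′ to 3′ on the mm10 build with the start codon in capitals, from GENCODE release M21. In the A, S and 1a forms coding exons 2, 3 and 4 had 111, 104 and 199 bases in all 4 genes. Length varied in the first coding exon, of 193 bases in Fgf11, 199 in Fgf12, 187 in Fgf13 S and 193 in Fgf14 1a. The last coding exon had 68 bases in Fgf11, 116 in Fgf12 and 134 in both Fgf13 S and Fgf14 1a.
Fgf11 A form, chr11:69801433-69801625, minus strand: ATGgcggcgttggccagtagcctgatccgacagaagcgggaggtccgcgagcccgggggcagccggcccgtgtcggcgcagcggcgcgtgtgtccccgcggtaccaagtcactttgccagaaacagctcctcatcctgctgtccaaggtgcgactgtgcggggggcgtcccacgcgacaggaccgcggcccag
Fgf12 A form, chr16:28444993-28445191, minus strand: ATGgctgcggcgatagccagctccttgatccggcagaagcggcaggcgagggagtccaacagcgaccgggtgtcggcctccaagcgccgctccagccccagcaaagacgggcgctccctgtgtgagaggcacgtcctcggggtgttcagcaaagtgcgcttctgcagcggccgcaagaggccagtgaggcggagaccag
Fgf13 S form, chrX:59133877-59134063, minus strand: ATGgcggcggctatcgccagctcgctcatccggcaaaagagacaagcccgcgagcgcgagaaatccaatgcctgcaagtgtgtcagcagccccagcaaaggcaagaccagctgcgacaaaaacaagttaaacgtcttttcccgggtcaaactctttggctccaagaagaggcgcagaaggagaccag
Fgf14 1a form, chr14:124192329-124192521, minus strand: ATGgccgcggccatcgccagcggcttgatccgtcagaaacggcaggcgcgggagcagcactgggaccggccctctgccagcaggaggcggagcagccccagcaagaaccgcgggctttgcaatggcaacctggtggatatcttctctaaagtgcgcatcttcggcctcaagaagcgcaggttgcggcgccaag
Fgf13 U form, chrX:59166013-59166040, minus strand: ATGgctttgttaaggaagtcatattcag
Fgf14 1b form, chr14:124676510-124676717, minus strand: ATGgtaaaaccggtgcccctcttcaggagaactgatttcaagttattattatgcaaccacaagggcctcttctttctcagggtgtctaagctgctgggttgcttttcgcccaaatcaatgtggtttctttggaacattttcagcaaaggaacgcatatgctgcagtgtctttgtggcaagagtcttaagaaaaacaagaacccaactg
Among the 4 long first exons of the A type, identity over the aligned columns was highest between Fgf12 and Fgf14 1a at 68.0%, and lowest between Fgf11 and Fgf13 S at 53.6%. The 1a and 1b exons of Fgf14 shared 43.9%, less than any pair of A-type exons from different genes. The U exon of Fgf13 encodes only 28 bases and shortens the open reading frame to 192 codons, against 245 with the S exon.

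Reads numbered at least 26.8, 23.7 and 23.3 M in libraries 1, 2 and 3, added over the fullest row of each gene. A level of 1 TPM (transcripts per 1 M, adjusted for length) corresponded to 103, 86.5 and 91.4 reads for a 2 kb transcript. The 1 M is spread over 84660 rows, which count many reads more than once. Levels here are therefore lower than on a scale of genes: rescaling to nuclear protein-coding genes multiplied them by 4.68 to 4.85. Neuron markers were detected in 10 of 10 cases and summed to 2674, 2761 and 2458 TPM, led by Stmn2, Gap43 and Syp. The cultures also held transcripts of other cells: all 10 astrocyte markers were detected (797, 803 and 1074 TPM in sum), as were 8 of 10 of the oligodendrocyte lineage (73.7, 56.1 and 90.5 TPM) and 9 of 10 of radial glia and progenitors (398, 348 and 311 TPM). Of the radial glia and progenitor sums, Fabp7 alone gave 324, 259 and 227 TPM. Microglial, endothelial or mural, and fibroblast markers had 1 of 8, 1 of 8 and 2 of 8 detected, with sums from 1.45 to 5.61 TPM, and Tmem119 and Cldn5 were listed at 0. In such bulk RNA, fewer cells of a type and less RNA per cell cannot be told apart, and the share of each cell type in a value below was not tested.

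A gene's level is the TPM of its longest protein-coding transcript row, because the rows of 1 gene count many of the same reads and cannot be added. With detection set at a mean of 1 TPM, 9 of the 10 genes were detected, where 61.5% of all protein-coding genes were. The 10 genes were chosen with earlier results of these data known, so this count is not independent of the choice. At 10 TPM or more stood 3 genes, Fgf12, Fgf13 and Fgfr1, against a background of 26.4%. The count of 9 stayed with each gene's highest row (63% of protein-coding genes), at 0.5 TPM (66.4%) and against genes above 0 in every library (72.5%), and was 6 at 5 TPM (40.4%). The median level over the 10 genes was 5.67 TPM, beside 2.84 TPM over all protein-coding genes. The scale log2(TPM + 1) used below compresses ratios between weakly expressed genes; on it these medians were 2.74 and 1.94.

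All 4 homologous factors were detected, but 2 of them held nearly all of the family's transcripts. Fgf12, whose human counterpart is a gene of early epileptic encephalopathy, had 63.2, 78.1 and 60.8 TPM in libraries 1, 2 and 3 (67.3 ± 9.38 TPM, SD, n = 3), above 96.9% of protein-coding genes. Fgf13, an X-linked gene whose product binds sodium channels and also microtubules, had 41.4, 46.9 and 46.0 TPM (44.8 ± 2.95 TPM, SD, n = 3). Every library had more Fgf12 than Fgf13, and the ranges of the 2 genes did not overlap.

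Fgf14 and Fgf11 were about an order of magnitude below these. Fgf14, whose product acts at the axon initial segment and whose mutation causes an inherited ataxia in humans, had 5.33, 6.29 and 4.68 TPM (5.43 ± 0.811 TPM, SD, n = 3). Fgf11, whose role is the least known of the 4, had 4.33, 4.48 and 4.199 TPM (4.34 ± 0.138 TPM, SD, n = 3). The Fgf14 range lay above that of Fgf11, and they stood above 61.2% and 56.9% of protein-coding genes, not far from the middle of the distribution. Summed over the 4 longest coding rows, the family reached 114, 136 and 116 TPM, of which Fgf12 held 55.3, 57.5 and 52.5%. Fgf12 and Fgf13 together held 91.5, 92.1 and 92.3% of it, a share that differed by less than 1 percentage point between libraries.

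The 2 secreted ligands were detected at low to moderate levels. Fgf1, a ligand without a classical signal peptide that can bind every FGF receptor, had 8.74, 9.09 and 7.45 TPM (8.43 ± 0.866 TPM, SD, n = 3). Fgf9, a ligand known in the brain as a product of neurons that acts on glia and their precursors, had 3.01, 3.83 and 2.85 TPM (3.23 ± 0.524 TPM, SD, n = 3). Fgf1 was above Fgf9 in every library and made up 74.4, 70.4 and 72.3% of their summed TPM.

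Of the receptors, 3 of 4 were detected. Fgfr1, the receptor most widely expressed in neurons and progenitors, had 11.6, 12.03 and 12.4 TPM (12.03 ± 0.421 TPM, SD, n = 3). Fgfr3, in the cortex a gene of radial glia and astrocytes, had 5.85, 6.22 and 5.64 TPM (5.91 ± 0.294 TPM, SD, n = 3). Fgfr2, a receptor of glial cells and their precursors in the brain, had 4.39, 5.20 and 4.46 TPM (4.68 ± 0.452 TPM, SD, n = 3). Fgfr1 stood above the other two in each library and held 53.1, 51.3 and 55.2% of the receptor total of 21.8, 23.5 and 22.6 TPM.

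Fgfr4, the receptor of bile acid control in the liver and of muscle regeneration, was the 1 undetected member. Its longest coding row had 0, 1 and 2 reads, or 0, 0.00696 and 0.0132 TPM. These are all at or below the limit that a count of 0 allows, 3 reads, which corresponds to 0.0176, 0.0209 and 0.0198 TPM. Such limits cover counting error only, and a lower level of the transcript was not detectable at this depth.

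**Figure D1:**
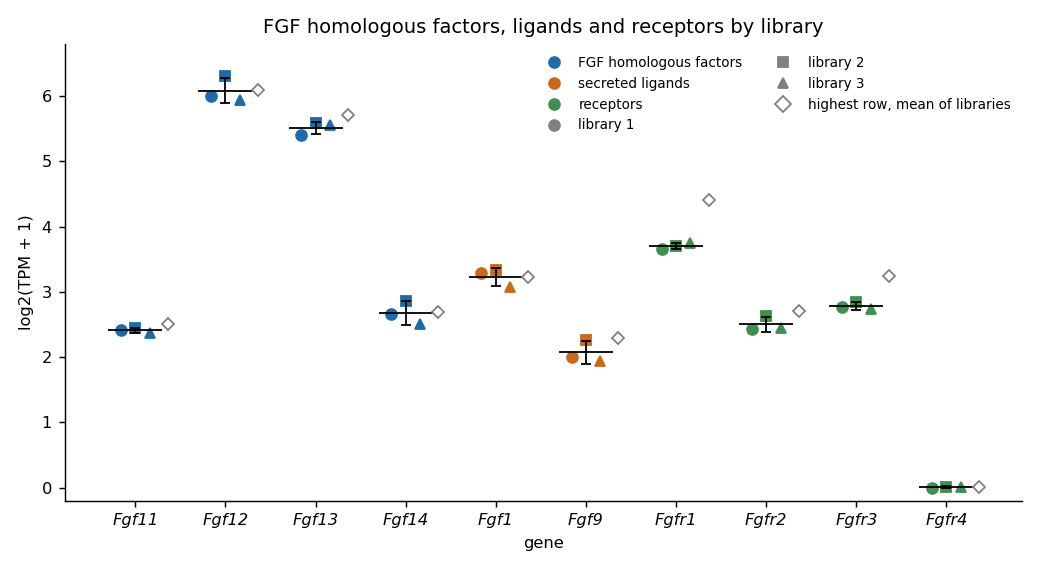
Level of each gene on the log2(TPM + 1) axis, with circles, squares and triangles for libraries 1, 2 and 3, a line for the mean and bars for 1 SD (n = 3). Blue marks homologous factors, orange secreted ligands and green receptors, and open diamonds give the mean of the gene's highest row. Fgf12 and Fgf13 stand apart at the top, Fgfr4 lies at 0, and the other 7 genes fall between 2.85 and 12.4 TPM.

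Ordered by mean level, the genes ran Fgf12, Fgf13, Fgfr1, Fgf1, Fgfr3, Fgf14, Fgfr2, Fgf11, Fgf9 and Fgfr4. Of the 9 neighbouring pairs, 6 had ranges over the libraries that did not overlap. The largest steps between detected neighbours were Fgf13 over Fgfr1, by 1.81 ± 0.06 on the log2(TPM + 1) scale, and Fgf12 over Fgf13, by 0.57 ± 0.17 (SD, n = 3). Fgfr1 exceeded Fgf1 by 0.47 ± 0.17, Fgf1 exceeded Fgfr3 by 0.45 ± 0.09 and Fgf11 exceeded Fgf9 by 0.34 ± 0.14. Each of these differences had the same sign in 3 of 3 libraries.

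In the run Fgfr3, Fgf14, Fgfr2 and Fgf11, the range of each gene over the 3 libraries overlapped that of the next. Fgfr3 was above Fgf14 in 2 of 3 libraries, by 0.11 ± 0.12 on the log2(TPM + 1) scale. Fgf14 over Fgfr2 came to 0.17 ± 0.10 and Fgfr2 over Fgf11 to 0.09 ± 0.08, each with the same sign in 3 of 3 libraries. Without library 2 the ranges of all 9 pairs were apart, without library 3 those of 7 and without library 1 those of 6. Leaving out a library can only narrow a range. In an exact two-sided sign-flip permutation test over the 3 libraries, no pair could go below p = 0.25, and Benjamini-Hochberg adjustment over the 9 pairs gave 0.281, or 0.5 for Fgfr3 and Fgf14. The order is thus described by the ranges, since the test cannot reach 0.05 with this number of libraries.

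The spread between libraries was uneven among the genes. The coefficient of variation was 16.2% for Fgf9, 14.9% for Fgf14 and 13.9% for Fgf12, all above the upper quartile of 11.5% over detected protein-coding genes, whose median was 7.89%. It was 3.18% for Fgf11, 3.504% for Fgfr1 and 4.99% for Fgfr3, below the lower quartile of 5.01%. Counting error alone gave 1.02% for Fgf12, 3.31% for Fgf14 and 4.56% for Fgf9, so their spread was several times what reads would give, whereas Fgf11 varied less than its counting error of 4.03%.

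Library 2 was the highest for 8 of the 9 detected genes, where it was the highest for 40.2% of detected protein-coding genes. Fgfr1 was the exception, with its highest level in library 3. In 6 genes, Fgf12, Fgf14, Fgf11, Fgf1, Fgf9 and Fgfr3, library 2 was followed by library 1 and then library 3, an order seen in 24% of detected protein-coding genes. The summed neuron markers had this order too, but single neuron markers were split. Some had it, while Stmn2 and Gap43, which lead the list, fell from library 1 to library 3. The summed astrocyte markers were highest in library 3, where Apoe alone had 550 TPM, against 365 and 344 TPM in libraries 1 and 2. Single astrocyte markers were split as well: S100b was highest in library 1, and Aldh1l1 and Slc1a2 in library 2. The part of neuron or astrocyte RNA in these values was not tested.

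The deposited rows gave a view of the isoforms of each gene. The 10 genes had 80 rows, from 1 row of Fgf12 to 26 rows of Fgfr2. A row counted every read in its own exons, since in 50 of 50 pairs in which the exons of 1 row lay within those of another the larger row had at least as many reads in every library. Rows of a gene are therefore not separate molecules, and their differences are what can be read.

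**Figure D2:**
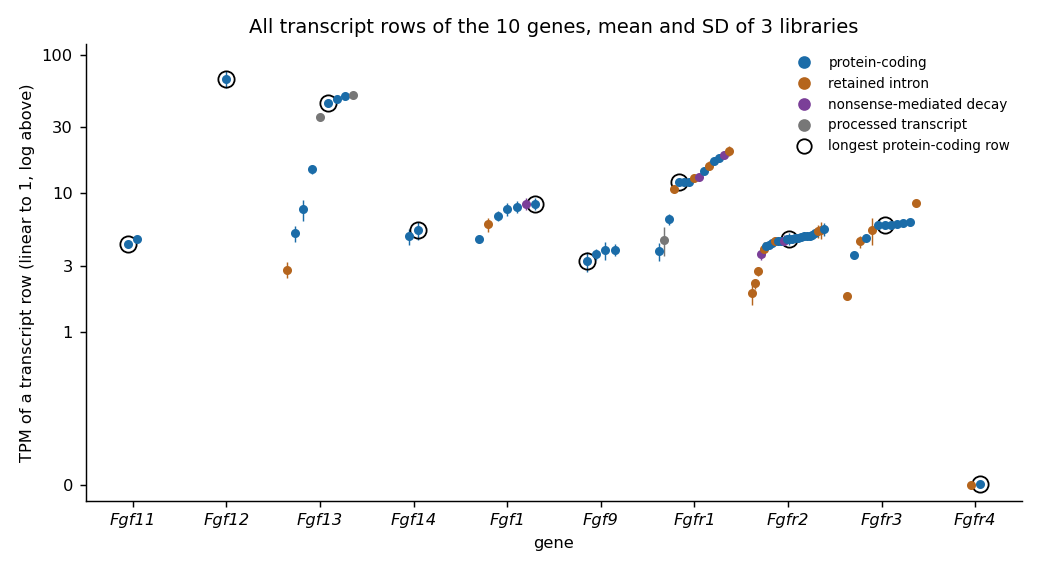
Each point is 1 deposited transcript row of a gene, with its mean TPM and SD over 3 libraries on an axis that is linear to 1 and logarithmic above, coloured by transcript type. Open rings mark the longest protein-coding row. Fgf13 has the widest spread among detected genes, with rows from 2.80 to 51.2 TPM, while the 2 rows each of Fgf11 and Fgf14 nearly coincide.

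Row to row, Fgf13 varied most among detected genes, from 2.80 TPM in the retained-intron row Fgf13-209 to 51.2 TPM in the processed transcript Fgf13-207. Its 3 long coding rows were close, at 44.8 ± 2.95 TPM for the S form, 48.0 ± 3.09 TPM for the form that starts at the distal exons and 50.6 ± 3.17 TPM for the U form (SD, n = 3). The 3 rows count many of the same reads and the U row is the shortest, so these values do not rank the forms. Fgfr1 rows ran from 3.82 to 20.3 TPM, Fgfr3 rows from 1.83 to 8.52 TPM, Fgfr2 rows from 1.89 to 5.51 TPM and Fgf1 rows from 4.69 to 8.43 TPM. The upper ends of Fgfr1 and Fgfr3 were short retained-intron rows.

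Where 2 rows differed in few exons, the difference of their reads was taken as the reads that lay wholly in those exons. This assumes that reads across a junction with a shared exon count in both rows and cancel. The counting settings are not given, and the nested rows do not test this assumption. For Fgf13, the row with the S first exon (chrX:59133877-59134436, 560 bases) had 5304, 5068 and 5253 reads and the row with the U first exon (chrX:59166013-59166164, 152 bases) had 5066, 4845 and 4853 reads. The S exon thus led by 238, 223 and 400 reads, most in library 3 and in the same direction in 3 of 3 libraries. The S exon is also the longer, and these counts were not divided by length.

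The distal first exons of Fgf13, at chrX:59567140-59567348 and chrX:59567984-59568071, held reads as well. The row that holds them had 68, 80 and 81 reads more than the U row, and the retained-intron row over them, Fgf13-209, had 73, 80 and 81 reads. The S and distal exons, in a locus of 506 kb, thus had reads of their own. Row Fgf13-209 covers nearly all of the distal exons, so its reads nearly cap theirs. Because the lead over the U row came close to that cap, few reads, if any, lay only in the U exon. The lead of the distal exons over the U exon was smaller than that of the S exon in every library.

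For Fgf9, the row with the 647-base first exon that opens the full-length frame had 304, 312 and 247 reads, against 226, 228 and 201 reads for the row with a 252-base alternative first exon and a 91-codon frame. The difference was 78, 84 and 46 reads, so the exon that opens the full-length ligand, which is also the longer, led in every library. The longest coding row of Fgf9, which supplies its level, also has a 91-codon frame. For Fgf14, the 1b row exceeded the 1a row by 192, 221 and 153 reads, but these rows also differ in 384 bases of the last exon, so the 2 first exons could not be told apart.

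Among the receptors, Fgfr2 had rows with IIIb, with IIIc and with neither, so that the reads of each exon could be solved from the row differences. Reads lying only in the IIIc exon numbered 20, 11 and 8 in libraries 1, 2 and 3, and reads lying only in the IIIb exon 1, 0 and 0. In total 39 reads fell in IIIc and 1 in IIIb, with exons of 145 and 148 bases, so that length hardly differed. In Fgfr3 the IIIc row exceeded the IIIb row by 25, 7 and 9 reads, again with IIIc ahead in 3 of 3 libraries. In Fgfr1 the Ig I exon and the IIIc exon together exceeded the IIIb exon by 193, 143 and 131 reads, a difference that could not be split between them.

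The first Ig domain, which in FGF receptors lowers ligand affinity and is skipped in some forms, was also seen in Fgfr2. Its 267-base exon (chr7:130242378-130242644) held 15, 15 and 24 reads of its own. The 78-base exon next to it (chr7:130241200-130241277) gave a difference of 9, 10 and 21 reads. The rows behind that difference both lack the Ig I exon, so it may include reads that run from the 78-base exon into the Ig I exon. Both were highest in library 3, where the IIIc exon was lowest. These are small counts whose counting error alone is large.

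**Figure D3:**
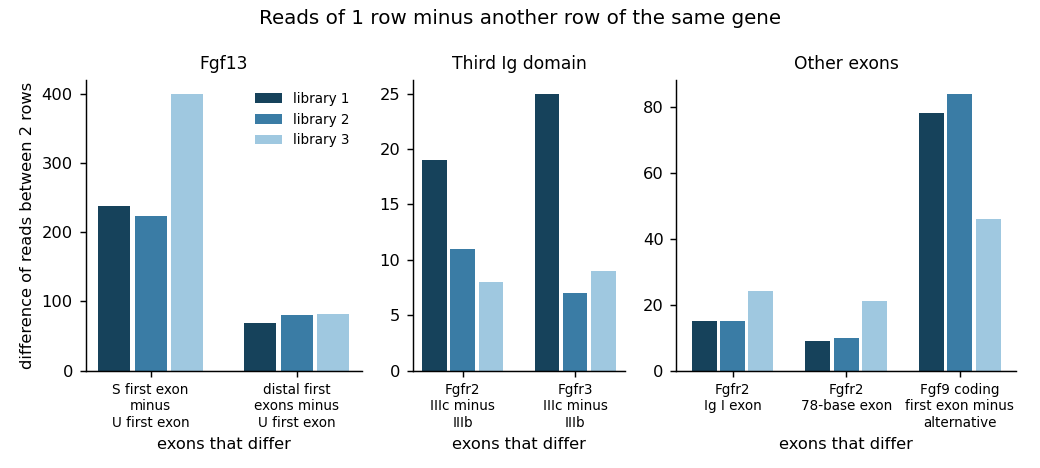
Bars give, for libraries 1, 2 and 3 from dark to light, the reads of 1 row minus those of another row of the same gene, on linear axes from 0 that differ between panels. All bars are above 0: the Fgf13 S exon leads the U exon by 223 to 400 reads, and IIIc leads IIIb by 8 to 19 reads in Fgfr2 and by 7 to 25 reads in Fgfr3.

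The genes differed widely in the genomic span of their longest coding row, a property that bears on a study of topoisomerases, enzymes known to ease transcription of long genes in neurons. Fgf14 spanned 699 kb, longer than 99.5% of protein-coding rows, with an intron of 540 kb, and Fgf12 spanned 285 kb with an intron of 183 kb. Only 0.516% of the Fgf14 span and 1.08% of the Fgf12 span was exonic. At the other end, Fgf11 spanned 5.79 kb, of which 52.5% was exonic.

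Fgf12, with a row of 285 kb, had the highest level of the homologous factors, and Fgf14, the longest, lay near Fgf11, the shortest. Among all protein-coding genes whose row spans over 200 kb, 77.3% had at least 1 TPM and 30% at least 10 TPM. The longest coding row spanned 104 kb in Fgfr2, 80.1 kb in Fgf1, 72.3 kb in Fgf13, 56.9 kb in Fgfr1, 41.8 kb in Fgf9, 16.1 kb in Fgfr4 and 15.3 kb in Fgfr3. Over all rows together Fgf13 spanned 506 kb, and Fgfr2 2961 kb through 1 row, so these 2 genes would be placed farther to the long end by that measure. Fgf12 has 1 deposited row out of 6 M21 transcripts. A RefSeq start of Fgf12 lies farther upstream, at chr16:28753243, so its 285 kb understates the span of the gene.

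**Figure D4:**
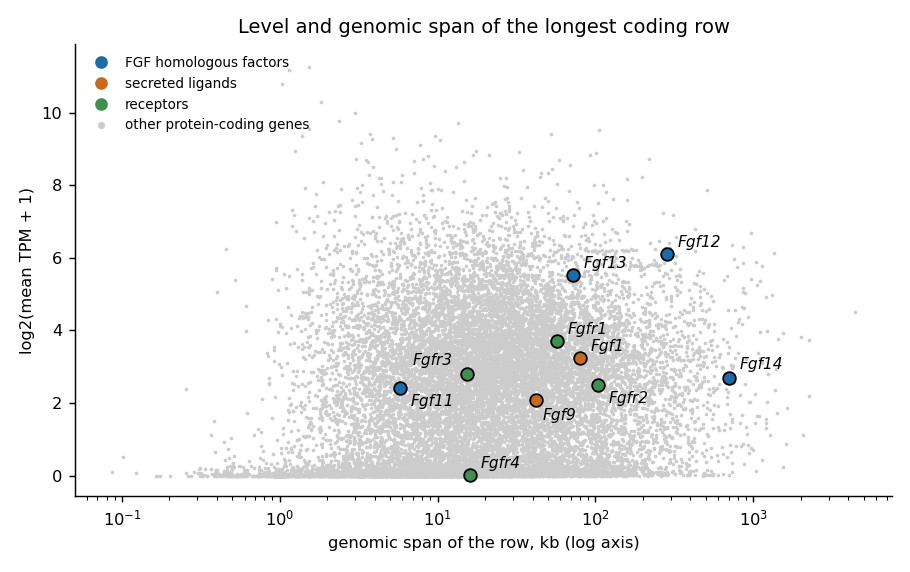
Mean level on the log2(TPM + 1) axis against the genomic span of the longest coding row in kb on a logarithmic axis, with grey points for other protein-coding genes. Fgf14 and Fgf12 lie at the long end with 5.43 and 67.3 TPM, and Fgf11 at the short end with 4.34 TPM.

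The start of the Fgf13 S form is shown because its exon led the other Fgf13 first exons in reads. These are the 250 bases before it from the RefSeq promoter table (GRCm38.p6), 5′ to 3′ on the strand of the gene, with GGGCGG or its complement CCGCCC in capitals.
Fgf13 S start, chrX:59134437-59134686, minus strand: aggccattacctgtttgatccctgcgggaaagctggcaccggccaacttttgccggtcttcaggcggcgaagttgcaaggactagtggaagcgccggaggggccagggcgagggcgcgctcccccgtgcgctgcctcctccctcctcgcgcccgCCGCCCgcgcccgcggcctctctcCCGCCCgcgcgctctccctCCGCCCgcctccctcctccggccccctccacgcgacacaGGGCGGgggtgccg
The window held 74.4% G and C, 31 CpG and 4 matches to GGGCGG on either strand, and none to TATAAA. The window before the RefSeq start chrX:59166088, which lies inside the U first exon, held 40.4% G and C, 6 CpG and no GGGCGG. It thus includes part of that exon. No deposited row begins at the 2 RefSeq starts farther upstream, the second of which lies beyond all rows, and their windows differed. That before chrX:59567348 held 74.8%, 33 CpG and 3 matches, and that before chrX:59585572 held 45.6%, 2 CpG and no match. Over 32851 windows of this length the median was 52.4% G and C and 6 CpG, 32.7% held GGGCGG and 12.4% TATAAA, each on either strand. In 15 windows of 8 of the genes, TATAAA was in none. Fgf1 and Fgfr1 were not matched in that table. These matches describe letters only.

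Around the members, the pathway was tabulated from 6 gene lists, each read against the 61.5% of protein-coding genes detected. The lists were written with earlier results of these data known, so a rate above that background is not independent of the choice of genes. Of the partners of the homologous factors, 11 of 12 were detected. The sodium channel beta subunit Scn3b had 42.6 ± 1.20 TPM and the pore-forming subunit Scn2a 36.2 ± 5.50 TPM (SD, n = 3). These levels were of the order of Fgf13 itself. Mapk8ip2, a scaffold of kinase signalling that binds homologous factors, had 23.6 ± 1.58 TPM, and Scn4b, at 0.0466 TPM, was the undetected partner.

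Few other secreted FGFs reached the detection bound of 1 TPM on this scale. Of 15 other ligands with a row, 1 was detected, Fgf18 at 1.31 ± 0.158 TPM (SD, n = 3), and the list median was 0.135 TPM. Fgf5 followed at 0.657 ± 0.0579 TPM and Fgf10 at 0.508 ± 0.0996 TPM, while Fgf4, Fgf8 and Fgf22 were listed at 0. Fgf1 and Fgf9 were above each of these 15 ligands in mean level. Members and list were chosen with earlier results of these data known, so this order is not independent of the choice. Fgf6 was not analysed here.

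Of 8 co-receptors and binding proteins, 5 were detected, with a list median of 2.44 TPM. The adhesion proteins Flrt3 and Flrt2, which bind FGF receptors, had 10.6 ± 0.904 and 8.39 ± 1.25 TPM, and Fgfrl1, a receptor without a kinase domain, had 6.58 ± 1.01 TPM (SD, n = 3). Kl and Klb, the klotho co-receptors of the endocrine FGFs, had 0.0994 and 0.0226 TPM. Their ligands Fgf15, Fgf21 and Fgf23 and the receptor Fgfr4 were below 1 TPM as well.

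The listed heparan sulfate genes and genes of the cytoplasmic signalling chain were detected at rates above the background, with the limit on the choice of lists given above. In the heparan sulfate list 21 of 23 genes were detected, 10 of those reaching 10 TPM, with a median of 9.68 TPM. The proteoglycan Sdc3 led at 71.1 ± 3.97 TPM, followed by the sulfotransferases Hs6st2 at 21.1 ± 2.47 TPM and Hs6st1 at 18.3 ± 0.841 TPM (SD, n = 3). In signal transduction 21 of 22 genes were detected with a median of 12.1 TPM, among them the kinases Mapk3 at 57.5 ± 2.80 TPM and Araf at 49.3 ± 1.77 TPM. The receptor adaptors Frs2 and Frs3 had 6.15 ± 0.373 and 3.23 ± 0.157 TPM (SD, n = 3).

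Genes that FGF signalling induces in many tissues, including its own inhibitors, were detected in 10 of 11 cases with a median of 7.98 TPM. The inhibitor Spry2 had 19.0 ± 1.22 TPM, the phosphatase Dusp6 18.6 ± 1.66 TPM and the inhibitor Spred1 17.7 ± 1.65 TPM (SD, n = 3). The transcription factors Etv5, Etv1 and Etv4 had 9.36, 3.63 and 2.72 TPM, and Il17rd, at 0.788 TPM, was the undetected gene. These genes respond to other growth factors too, and which signal set these levels was not tested.

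**Figure D5:**
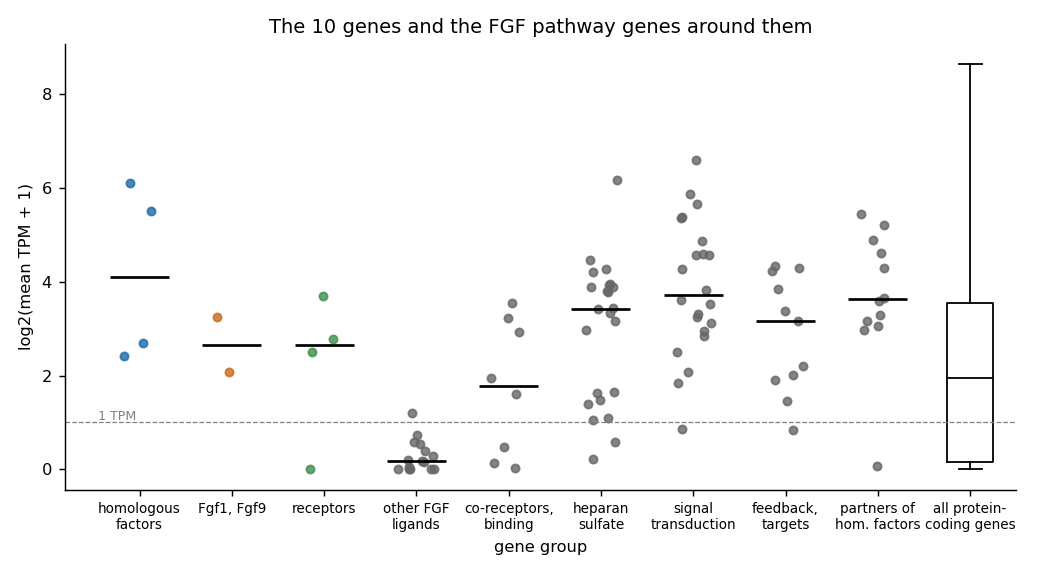
Points are genes at their mean level over 3 libraries on the log2(TPM + 1) axis, with a line at each group's median and a dashed line at 1 TPM. The box for all 18221 protein-coding genes gives the quartiles and median, with whiskers to the last gene within 1.5 interquartile ranges. Other FGF ligands lie near 0, with 1 of 15 above 1 TPM, while the medians of the heparan sulfate and signal transduction lists are 9.68 and 12.1 TPM.

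For each detected gene, the gene of these lists with the closest level was found by the largest absolute difference in log2(TPM + 1) over the 3 libraries, among 91 genes. Fgfr2 was nearest to the ubiquitin ligase gene Cbl, never more than 0.02 apart, and Cbl was also nearest to Fgf11 (0.17) and Fgf14 (0.25). Fgfr3 was nearest to the adaptor gene Frs2 (0.07), Fgf1 to the adhesion gene Nfasc (0.08), Fgf13 to Scn3b (0.12), Fgfr1 to the proteoglycan gene Gpc5 (0.16), Fgf12 to Sdc3 (0.20) and Fgf9 to Frs3 (0.25). Levels alone were compared.

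Most of the sequence of these genes is unique among annotated genes. Of the 50-base words of each gene's transcript, between 91.2% in Fgfr3 and 100% in Fgf1, Fgf12, Fgfr2 and Fgfr4 occurred at no other annotated locus. Exons overlapped on the opposite strand with Gm28932 in Fgf14 over 220 bases, with Gm16159 in Fgfr1 over 164 bases and with G630022F23Rik in Fgfr3 over 437 bases. The first of these had 0.274 TPM and the second was listed at 0. The library kit keeps the strand, but whether the counting used it is not given.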

How the data were processed

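Poly-A RNA of 3 libraries of untreated cortical neurons was sequenced with a strand-specific kit, per the labels' protocols. The tools were Trimmomatic, TopHat, Bowtie and HTSeq and the build mm10, per the submitters' processing notes, which give no versions. The authors deposited TPM per transcript on GENCODE rows. The counting settings: not given in the sources used here.

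Of 84660 rows, 83017 matched GENCODE M21 by identifier, and 47 of these lay elsewhere and were given no gene. Exons are those of M21, with outer ends set to the deposited ones, which differed in 8 of 80 rows of the 10 genes. TPM times exonic length was within 0.01 of a whole multiple of 1 number per library in 99.8% of rows with unchanged ends and in all 80 rows of the 10 genes, which gave reads per row. On tables simulated with the same exon lengths this step recovered 100% of 74441 rows in each library, which does not test the lengths themselves. Counts served for depth, row differences and comparing libraries. No count test was run, because there is 1 group. Library pairs differed with a chi-square per degree of freedom of 13.6 to 20.1 over 9421 to 9464 genes of at least 50 reads, so all 3 were kept.

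A gene's level is the row of its longest protein-coding transcript, with the highest row as the alternative. Log values are log2(TPM + 1). Neighbours were compared within libraries by an exact two-sided sign-flip permutation test with Benjamini-Hochberg adjustment over 9 pairs. The members, the 6 pathway lists and the 7 marker lists were chosen with earlier results of these data known. Named are all members, the 3 highest and the zero genes of each pathway list, the nearest gene by level, and rows that differ in known splice forms. Gap43, Stmn2, Syp, Fabp7, Apoe, S100b, Aldh1l1, Slc1a2, Kl, Klb, Mapk8ip2, Scn4b, Frs2, Frs3, Il17rd, Etv1, Etv4, Etv5, Fgf15, Fgf21 and Fgf23 were named after their values were seen. Scn2a1 and Scn2a are 1 gene, and Spry3 was not analysed here. Some items that this rule names are not reported here. Exon pairs were aligned with Biopython 1.88, and tables were made with Python 3.11.15, pandas 2.3.3 and numpy 2.4.6.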

Additional observations from a re-analysis of the deposited data

How the results depend on the processing

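No paired analysis was possible because the libraries form 1 group, so replicate numbers pair no samples across groups; differences between genes were taken within each library. Levels were recomputed for the highest row, the median over libraries, leaving out each library, rescaling to nuclear protein-coding genes, a filter on genes at 0, a pseudocount of 0.1 for the differences and, added after seeing the data, choosing the longest row by M21 length. Of 79 recomputed levels, 16 moved by over 1 SD, 6 of them under the highest row and all 10 under rescaling, which multiplies each value by 4.68 to 4.85. The median level of the 10 genes was 6.97 TPM with highest rows and 26.9 TPM when rescaled, against 5.67 TPM as reported. Leaving out a library or taking the median moved no level by over 1 SD, but with 3 libraries neither could. The filter on genes at 0 could not change a level either. These settings therefore say nothing on how stable the levels are. Highest rows moved Fgfr1 most, to 20.3 TPM.

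Of 63 recomputed neighbour differences, 3 reversed: Fgf1 minus Fgfr3 was -0.0178 and Fgf14 minus Fgfr2 -0.0205 with highest rows (exact permutation p = 0.75 and 1), and Fgfr2 minus Fgf11 was -0.0278 with M21 lengths (exact permutation p = 0.25). The cause was not tested, beyond the change of row. Detection of other FGF ligands depended on the threshold: 1 at 1 TPM, 3 at 0.5 TPM, 0 at 5 TPM and 6 when rescaled. At 5 TPM, 1 of Fgf1 and Fgf9, 3 co-receptors, 6 feedback genes and 40.4% of protein-coding genes were detected.

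With 3 libraries no exact test goes below p = 0.25. If reads across a junction with a shared exon cancel, as assumed, a row difference sees only reads lying wholly within the exons that differ. The annotation release of the authors was not used here. Exon lengths come from M21, and forms of Fgf12 that start farther upstream were not analysed here.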
